A study of Mus musculus with 2116 samples.

Results

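Glucose transporters and enzymes of glycolysis were followed in single CD4+ T cells of the mouse spleen. The set was chosen by gene symbol and held 10 of the 23725 genes in the table: the transporters Slc2a1 (GLUT1) and Slc2a3 (GLUT3), the enzymes Hk1, Gpi1, Aldoa, Gapdh, Pgk1, Pgam1 and Pkm, and the lactate dehydrogenase subunit Ldha. All 10 had a row and all 10 reached 20 molecules in both libraries together, the minimum used for calls. The cells were of 2 kinds, Foxp3+ regulatory T cells (Treg, 816 cells) and Foxp3- conventional T cells (Tconv, 1300 cells). The kinds were read from the title codes and the series title. All cells came from the spleen of male B6 Foxp3-Ires-Gfp mice aged 8 months, a strain in which green fluorescent protein is made under the control of Foxp3. The number of mice is not given in the sources used here. The sort gated on live, TCRb+ CD4+ cells, and the protocol names GFP+ cells for both populations. RNA was counted with inDrops, which captures cells in droplets and tags each captured mRNA with a unique molecular identifier (UMI).

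Glycolysis takes up glucose through facilitative transporters, phosphorylates it, splits it into 3-carbon sugars and draws ATP and NADH from these on the way to pyruvate. Lactate dehydrogenase then turns pyruvate into lactate and restores NAD+. T cells raise this pathway when they are activated, with the transcription factors Myc and Hif1a among its known activators. Regulatory T cells are known for relying more on mitochondrial oxidation than effector T cells do.

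Each kind of cell was 1 library, so no difference below has a replicate check, and no p-value was computed. Intervals are 95% intervals for counting error only and are too narrow where UMIs of a gene clump in cells. Values are UMIs per 1000000 UMIs in genes (CPM). The Treg library held 1468203 UMIs (median 1688.5 per cell) and the Tconv library 2002752 (median 1510.5 per cell). Foxp3, the gene that defines Treg cells, had 558 UMIs in Treg and 6 in Tconv. Genes of the T lineage summed to 3624 CPM in Treg and 3734 in Tconv. Cells with at least 3 UMIs of a marker list of another cell type (7 lists, from B cells to platelets) were 9.56% of the Treg library (7.63 to 11.8) and 3.08% of the Tconv library (2.21 to 4.17). B cell markers summed to 685 CPM in Treg and 179 in Tconv, myeloid markers to 446 and 281 and plasmacytoid dendritic markers to 296 and 184. Plasma cell markers went the other way, at 92.6 CPM in Treg and 231 in Tconv, as did CD8 or NK markers, at 63.3 and 74.9. Platelet markers had 16 UMIs in Treg and 4 in Tconv. The 5 erythroid markers had 222 UMIs in Treg, with 2 markers at 0, and all were at 0 in Tconv. Only 2 Treg cells had at least 3 erythroid UMIs. The share of UMIs from ribosomal protein genes was 26.2% in Treg and 32.8% in Tconv. Per the labels, a UMI rested on 32.4 mapped reads in Treg and 19.5 in Tconv. In library sums, fewer cells with a transcript and less of it per cell cannot be told apart. The part of these differences in the results was not tested. A difference between the libraries cannot be told apart from a difference between samples, sorts or droplet runs. The labels' cell codes held 12 that occurred in both libraries.

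Glucose transport was where the libraries differed most among the 10 genes. Slc2a3 (chr6:122727809-122801640, minus strand, GRCm38), a high-affinity glucose transporter best known from neurons and also made by lymphocytes, had 139 UMIs (94.7 CPM, 79.6 to 112) in Treg and 37 UMIs (18.5 CPM, 13.0 to 25.5) in Tconv. It was 5.12-fold higher in Treg (3.54 to 7.58), or 2.36 on the log2 scale (1.83 to 2.92). Slc2a1, the transporter usually linked to T cell activation, had only 23 UMIs (15.7 CPM) in Treg and 25 UMIs (12.5 CPM) in Tconv. Its log2 ratio of 0.33 had an interval of -0.56 to 1.20, so a difference in Slc2a1 was not detectable at this depth. Slc2a3 thus supplied 85.8% of the UMIs of the pair in Treg (79.5 to 90.8) and 59.7% in Tconv (46.5 to 71.9).

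The preparatory enzymes were at like levels in both libraries, Aldoa apart. Hk1, the hexokinase that traps glucose as glucose 6-phosphate, had 91 UMIs (62.0 CPM) in Treg and 136 UMIs (67.9 CPM) in Tconv (log2 ratio -0.13, interval -0.53 to 0.26). Gpi1, the isomerase that makes fructose 6-phosphate, had 273 UMIs in Treg and 400 in Tconv (log2 ratio -0.10, interval -0.33 to 0.12). Aldoa, the aldolase that splits the 6-carbon sugar, encoded on chromosome 7 (chr7:126795234-126800751, minus strand), had 118 UMIs (80.4 CPM, 66.5 to 96.2) in Treg and 250 UMIs (125 CPM, 110 to 141) in Tconv. It was lower in Treg by a log2 ratio of -0.64 (-0.96 to -0.31). Without the cells that carried markers of other types the Aldoa ratio was -0.51, inside the 1.5-fold limit.

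Of the enzymes that harvest energy, Gapdh lay slightly on the Treg side and Pkm and Ldha on the Tconv side. Gapdh, which reduces NAD+ to NADH, had 515 UMIs (351 CPM, 321 to 382) in Treg and 597 UMIs (298 CPM, 275 to 323) in Tconv (log2 ratio 0.23, interval 0.062 to 0.41). Pgk1, the first enzyme of the pathway to make ATP, had 251 UMIs in Treg and 373 in Tconv (log2 ratio -0.12, interval -0.36 to 0.11). Pgam1, the phosphoglycerate mutase, had 119 UMIs in Treg and 149 in Tconv, its log2 ratio being 0.12 (-0.24 to 0.48) and turning to -0.023 without cells of other types. For these 2 enzymes no difference was detectable at this depth. Pkm, the pyruvate kinase gene, had 432 UMIs (294 CPM) in Treg and 670 UMIs (335 CPM) in Tconv (log2 ratio -0.19, interval -0.36 to -0.0086). Its M1 and M2 isoforms cannot be separated in counts per gene. Ldha (chr7:46841475-46855627, plus strand) had 395 UMIs (269 CPM, 243 to 297) in Treg and 667 UMIs (333 CPM, 308 to 359) in Tconv (log2 ratio -0.31, interval -0.49 to -0.13).

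**Figure D1:**
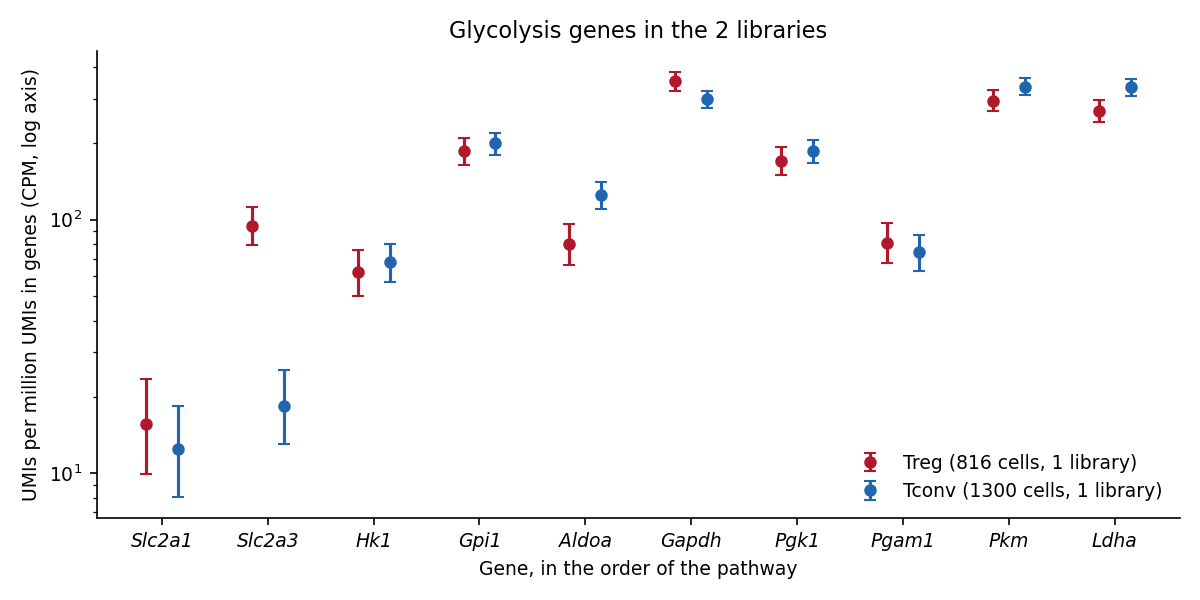
Level of each gene in the Treg library (left of each pair) and the Tconv library (right), in CPM on a log axis, with exact Poisson 95% intervals. The intervals are apart for Slc2a3 (94.7 CPM in Treg, 18.5 in Tconv), Aldoa (80.4 and 125) and Ldha (269 and 333). How well the mRNA of each gene was captured and counted was not measured, so levels of different genes compare counted UMIs only.

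At the 1.5-fold limit, 1 of the 10 genes was higher in Treg (Slc2a3) and 1 was lower (Aldoa). Over the 8988 genes with at least 20 UMIs, 20.6% were at least that much higher in Treg and 9.16% at least that much lower, so both counts were near or under their background shares. The 10 genes had a median log2 ratio of -0.11, while the median over all genes tested was 0.14. The 10 genes summed to 2356 UMIs (1605 CPM) in Treg and 3304 UMIs (1650 CPM) in Tconv (log2 ratio -0.040, interval -0.12 to 0.037). Without Slc2a3 the ratio was -0.11 (-0.19 to -0.03). Leaving ribosomal protein genes out of the total moved the median of all genes from 0.14 to 0.0039 and the summed ratio to -0.17. Gapdh stayed on the Treg side under that scaling at 0.10, and Pgam1 changed side at -0.011.

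Gapdh has near-identical gene copies that were also counted. The mouse genome carries many processed pseudogenes of Gapdh, DNA copies of its spliced mRNA. Transcripts of 176 genes in the GENCODE annotation matched Gapdh over at least 500 bases at 90% identity or more, and 9 of these genes had a row in the table used here. Gm12070 on chromosome 11 (chr11:26786633-26787634, plus strand, GRCm38) matched Gapdh (chr6:125161715-125166467, minus strand) at 99.9% over 1002 bases, with 1 difference, G361A, counted from the first base of the matched stretch. The stretch around this base is shown because it is the only place where a read could tell these 2 genes apart within the match. Capitals mark bases at which any of the 4 genes differ. Gm5069 (chr1:180326970-180330550, minus strand) and Gm5523 (chr1:13785883-13786879, minus strand) are more diverged copies, with C362T, C365G and C378T in Gm5069 and G361A, C362T and C380A in Gm5523.
Gapdh: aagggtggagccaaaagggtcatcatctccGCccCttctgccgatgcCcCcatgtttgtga
Gm12070: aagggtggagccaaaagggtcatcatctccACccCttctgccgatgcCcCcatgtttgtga
Gm5069: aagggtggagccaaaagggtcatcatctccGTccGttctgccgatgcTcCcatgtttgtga
Gm5523: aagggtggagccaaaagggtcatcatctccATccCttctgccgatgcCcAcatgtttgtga

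Gm12070 was counted more often than Gapdh itself, with 661 UMIs in Treg and 759 in Tconv. Gapdh held 43.8% of the UMIs of this pair in Treg (40.9 to 46.7) and 44.0% in Tconv (41.4 to 46.7), so the split between the 2 rows was the same in both libraries within counting error. The pair together had a log2 ratio of 0.24 (0.13 to 0.36), close to the 0.23 of Gapdh alone. The other 8 rows, among them Peli2 and Vmn2r60, genes of which only a processed transcript matched, summed to 463 UMIs (315 CPM) in Treg and 333 UMIs (166 CPM) in Tconv (log2 ratio 0.92, interval 0.72 to 1.13). Among them Gm5069 had 164 UMIs in Treg and 102 in Tconv (1.13, 0.77 to 1.504), and Gm5523 had 95 and 59 (1.14, 0.65 to 1.63). Gapdh with all 9 copies reached 1639 UMIs (1116 CPM) in Treg and 1689 UMIs (843 CPM) in Tconv (log2 ratio 0.40, interval 0.31 to 0.50). In Treg cells thinned to equal depth, 115 of the 191 with a Gapdh UMI also had a Gm12070 UMI, against 226 of all 738. In thinned Tconv cells it was 164 of 257, against 315 of all 1108. Whether the same molecules were counted in both rows was not tested. Sums and shares of these rows, with their intervals, take the UMIs of each row as separate. How the authors' counting placed reads that match several genes is not given in the sources used here, so the level of Gapdh, and its ratio between 0.23 and 0.40, depends on what is counted as Gapdh.

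Copies changed little for the other genes. Aldoa had 2 copies in the table, Aldoart1 with 17 UMIs in Treg and 39 in Tconv and Aldoart2 with 1 and 0, and with them its log2 ratio was still -0.64. Ldha had 1, Gm13315, with 6 UMIs in Treg and 4 in Tconv, and its ratio with the copy was -0.29. No transcript of another gene matched Slc2a1, Slc2a3 or Hk1 at these limits, and the matches to Gpi1, Pgk1, Pgam1 and Pkm had no row in the table used here. With all copies counted in as separate UMIs, the summed log2 ratio was 0.11 (0.042 to 0.17). The 10 genes alone were at -0.040, on the other side of 0. A like case outside the set was enolase, the enzyme before pyruvate kinase: Eno1 was listed at 0 in both libraries, while Eno1b, 99.5% identical over 1736 bases, had 634 UMIs in Treg and 1006 in Tconv (log2 ratio -0.22, -0.36 to -0.073). Eno1b and the Gapdh copies were named after their values had been seen. Whether the counting used strand is not stated, so reads of antisense neighbours cannot be told apart. In the table these were Iffo1 beside Gapdh (25 UMIs in Treg, 19 in Tconv), Fam57b beside Aldoa (4 and 3) and Hk1os beside Hk1 (1 and 1).

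**Figure D2:**
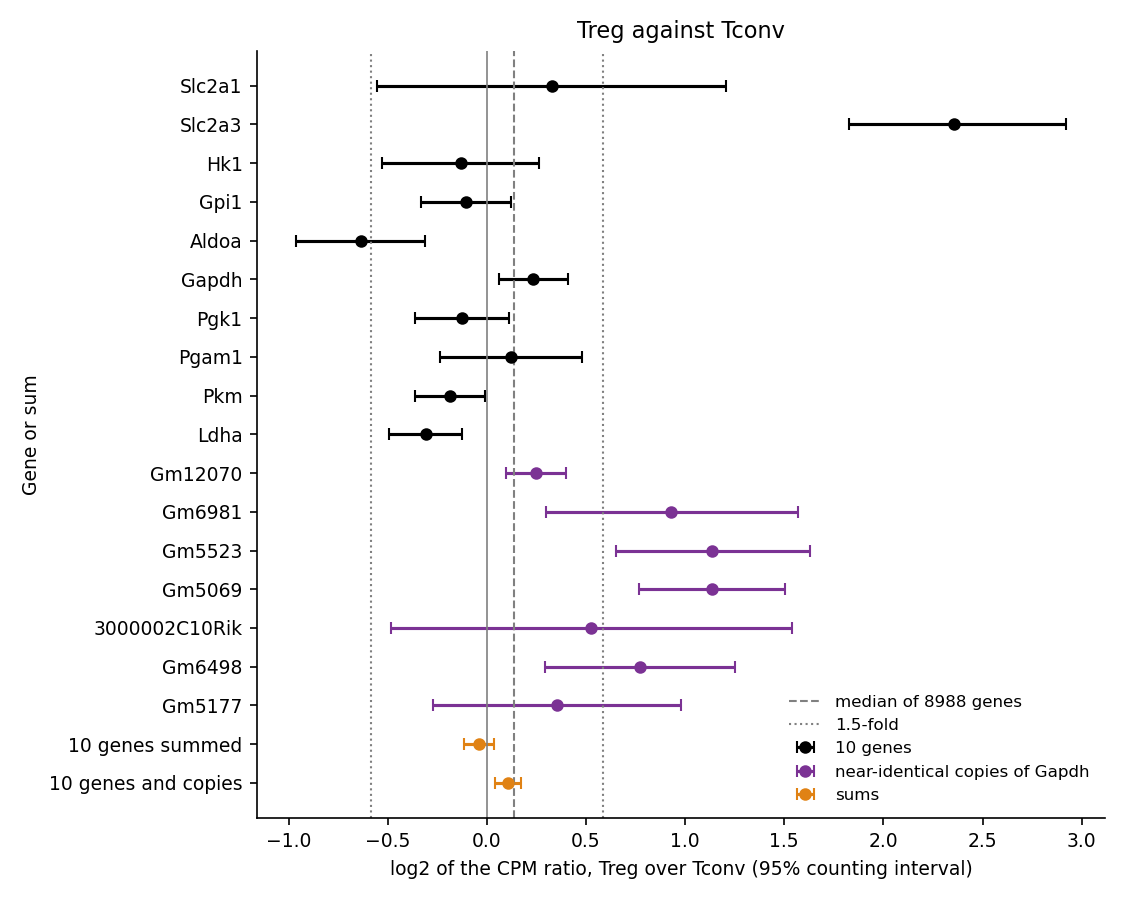
Log2 ratio of CPM, Treg over Tconv, with 95% counting intervals, for the 10 genes (black), the 7 near-identical copies of Gapdh with at least 20 UMIs (purple) and the sums (orange); dotted lines mark 1.5-fold and the dashed line the median of 8988 genes. Slc2a3 at 2.36 stands apart from the other 9 genes, which lie between -0.64 and 0.33, and the 6 more diverged Gapdh copies lie further to the Treg side than Gapdh at 0.23.

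Slc2a3 UMIs came from few cells. In Treg, 60 of 816 cells (7.35%) had any: 30 cells had 1 UMI, 10 had 2, 7 had 3, 8 had 4, and 5 cells had between 5 and 9. In Tconv, 25 of 1300 cells (1.92%) had any, of which 18 had 1 UMI, 4 had 2, 1 had 3 and 2 had 4. After each cell was thinned to 1000 UMIs, a UMI was found in 41 of 738 Treg cells (5.56%, 4.02 to 7.46), against 13 of 1108 in Tconv (1.17%, 0.63 to 1.998). Among cells with markers of other types, 4 of 78 in Treg and 2 of 40 in Tconv had a UMI, at median depths of 1806 and 1718.5 UMIs. Free RNA was not measured apart, and its part in these shares was not tested. Those cells held 4 of the 139 Treg UMIs and 5 of the 37 Tconv UMIs, and without them the log2 ratio was 2.63 (2.07 to 3.24). Without the 3 cells with most Slc2a3 in each library, which held 24 UMIs in Treg and 11 in Tconv, it was 2.59 (1.97 to 3.27). The Fano factor, the variance over the mean across thinned cells, was 3.10 for Slc2a3 in Treg and 1.49 in Tconv, where 1 is what independent counts give.

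**Figure D3:**
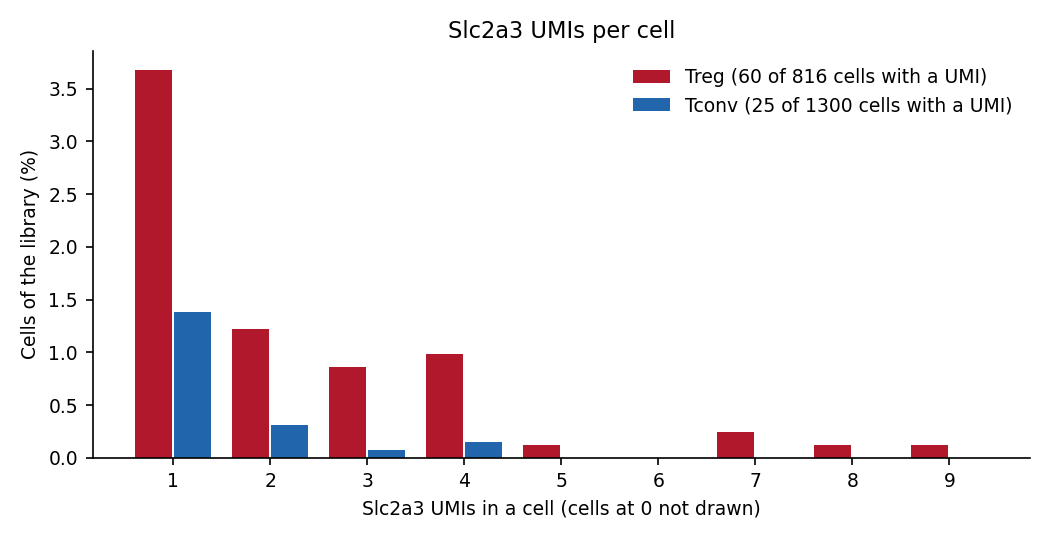
Share of the cells of each library (percent) by the number of Slc2a3 UMIs in the cell, Treg left and Tconv right of each number. Treg cells with 1 UMI numbered 30 and Tconv cells 18; only Treg cells held more than 4, up to 9.

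Within the Treg library Slc2a3 was compared between cells with and without a UMI of 4 genes, chosen after the data had been seen. In cells with a UMI of Foxp3 it was at 119 CPM (92.8 to 150), and in cells without one at 78.1 CPM (60.6 to 99.0). The log2 ratio between these cells was 0.61 (0.11 to 1.11), but the cells with any Slc2a3 were 23 of 297 with Foxp3 and 37 of 519 without, so the ratio lay in the UMIs of few cells. For Ikzf2, which encodes the Treg transcription factor Helios, the levels were 128 CPM with and 78.0 CPM without (0.71, 0.21 to 1.21). For Myc they were 188 CPM, from 23 UMIs in 8 of 52 cells, and 86.2 CPM (1.13, 0.41 to 1.78). For Il2ra, which encodes the high-affinity interleukin 2 receptor chain, the order was the other way, 82.5 CPM with and 100.2 CPM without (-0.28, -0.86 to 0.27). Cells with a UMI of these genes were also deeper, with medians of 1799 UMIs for Foxp3 and 1884 for Ikzf2 against 1610 and 1613.5 without. For Myc the medians were 2107 with and 1656 without, and for Il2ra 1804.5 and 1624. Treg cells without any Foxp3 UMI had more Slc2a3 than all Tconv cells, by a log2 ratio of 2.08 (1.48 to 2.70). These were 519 of the 816 Treg cells and held 68 of the 139 Slc2a3 UMIs, so this ratio is no separate check. At this depth a cell without a Foxp3 UMI may still express Foxp3.

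Other genes of glucose use were described from lists. Of 26 further genes of glycolysis, its regulation and lactate export, 12 reached 20 UMIs, of which 3 were at least 1.5-fold higher in Treg and 1 lower, with a median log2 ratio of 0.38. The shares over all genes, 20.6% higher and 9.16% lower, are the background of this and the next lists. Those higher were Hk2, the inducible hexokinase (17 UMIs in Treg, 5 in Tconv; 2.21, 0.72 to 4.01), the enolase Eno3 (25 and 13; 1.39, 0.37 to 2.48) and Ldhb, the lactate dehydrogenase subunit that favours pyruvate (60 and 43; 0.93, 0.34 to 1.53). The gene lower was Slc16a1, a lactate exporter (13 and 28; -0.66), whose interval of -1.73 to 0.34 included 0. Among the most counted of the list, the phosphofructokinase Pfkp had 124 UMIs in Treg and 172 in Tconv (-0.024, -0.37 to 0.32), Minpp1 had 131 and 156 (0.20, -0.15 to 0.54), and Bpgm had 47 and 43 (0.58, -0.052 to 1.21). Hk2 rested on few cells, 9 in Treg and 3 in Tconv, and 1 Tconv cell held 3 of its 5 UMIs. After thinning 5 Treg cells and 0 Tconv cells had any Hk2. Isoform shares, which for Hk1 and Hk2 rest on these same cells, were set side by side for 4 further pairs with counts of both members. Hk1 held 84.3% of the UMIs of Hk1 and Hk2 in Treg (76.0 to 90.6) and 96.5% in Tconv (91.9 to 98.8), and Ldha held 86.8% of those of Ldha and Ldhb in Treg (83.4 to 89.8) and 93.9% in Tconv (91.9 to 95.6). The intervals overlapped for Pfkp among Pfkp and Pfkl, 78.5% in Treg (71.2 to 84.6) and 83.5% in Tconv (77.7 to 88.3), and for Slc16a3 among Slc16a3 and Slc16a1, 40.9% in Treg (20.7 to 63.6) and 20% in Tconv (8.44 to 36.9).

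Routes that branch from glycolysis lay within 1.5-fold for most genes. None of the 7 pentose phosphate genes passed it, with a median of 0.23. Of its most counted genes, Tkt (transketolase) had 190 UMIs in Treg and 194 in Tconv (0.42, 0.12 to 0.71), Pgls had 158 and 168 (0.36, 0.037 to 0.68), Taldo1 had 187 and 278 (-0.12, -0.40 to 0.15) and Rpia had 61 and 74 (0.17, -0.34 to 0.68). Rpe lay nearest to the limit, on 13 and 26 UMIs (-0.55, -1.64 to 0.46). Of 12 genes that carry pyruvate into mitochondria or gate its entry, 2 were higher (Pdhx, Pdk4) and 1 lower (Pdp1), with a median of 0.20. Pdk1, a kinase that holds back pyruvate dehydrogenase, had 148 UMIs in Treg and 278 in Tconv (-0.46, -0.76 to -0.17). The pyruvate carrier subunit Mpc1 (0.23, -0.11 to 0.57) and the dehydrogenase subunits Pdhb (0.11, -0.24 to 0.47) and Pdha1 (-0.026, -0.40 to 0.34) had intervals that included 0. Of 9 measured genes of the Hif1a pathway and hypoxia response, 3 were higher and 1 lower (Ero1l, interval -1.92 to 0.011), with a median of 0.32. The most counted, Bnip3l, had 408 UMIs in Treg and 446 in Tconv (0.32, 0.12 to 0.52), inside the limit, as was the oxygen sensor Egln1 with 111 and 106 (0.51, 0.12 to 0.91). Hif1a itself had 149 UMIs in Treg and 100 in Tconv (1.02, 0.65 to 1.40), and P4ha1 had 72 and 55 (0.84, 0.31 to 1.37). The other gene higher was Ndrg1, with 54 and 23 (1.68, 0.95 to 2.45). Of 14 Myc growth targets 1 was higher (Eif5a, 0.59) and 1 lower (Srm, -0.62), with a median of 0.048. Among its most counted genes Npm1 (-0.086, -0.18 to 0.0066), Ncl (0.067, -0.073 to 0.21) and Ran (-0.059, -0.25 to 0.13) had intervals that included 0. Effector or memory genes lay on the Treg side, with 14 of 19 measured at least 1.5-fold higher, and resting T cell genes on the Tconv side, with 7 of 12 lower in Treg.

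Cells rich in effector transcripts had a higher summed level of the 10 genes in Treg, while in Tconv the interval of the ratio included 0 under 5 of 9 alternatives. Effector-rich cells had at least 8 UMIs, after thinning to 1000, of 25 genes of effector or memory T cells (S100a4, Itgb1, Ahnak, Cd44 and others), and effector-low cells had at most 2. These classes are ranges of a count and not cell types. In Treg the 10 genes summed to 397 UMIs (2016 CPM) in 92 effector-rich cells and 1096 UMIs (1494 CPM) in 402 effector-low cells (log2 ratio 0.43, interval 0.26 to 0.60). In Tconv they summed to 131 UMIs (2034 CPM) in 36 effector-rich cells and 2119 UMIs (1638 CPM) in 781 effector-low cells (log2 ratio 0.31, interval 0.047 to 0.57). The difference between the libraries in this ratio was not tested. Counting only thinned UMIs gave 0.33 in Treg and 0.048 (-0.36 to 0.43) in Tconv, and leaving out ribosomal protein genes gave 0.28 and 0.099 (-0.17 to 0.35). The Tconv ratio was 0.22 (-0.12 to 0.54) with effector-rich at 10 UMIs or more, 0.23 (-0.061 to 0.51) without cells above 2 times the median depth and 0.24 (-0.055 to 0.53) without cells with a Myc UMI. Among Treg cells the interval lay above 0 for Pgk1, with 58 UMIs (295 CPM) in effector-rich and 105 UMIs (143 CPM) in effector-low cells (1.04, 0.55 to 1.52), for Gapdh with 96 and 226 UMIs (0.66, 0.30 to 1.01) and for Pkm with 77 and 210 UMIs (0.45, 0.054 to 0.83). Gapdh with its copies had a log2 ratio of 0.61 (0.41 to 0.81) in Treg and 0.65 (0.31 to 0.98) in Tconv. Slc2a3, the gene that differed most between the libraries, was at 102 CPM in effector-rich and 98.1 CPM in effector-low Treg cells (0.050, -0.74 to 0.78).

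The number of genes past 1.5-fold was near the background. In Treg 3 of 9 measured genes were higher (Pgk1, Gapdh and Aldoa, with Aldoa at 0.74 and an interval of -0.081 to 1.51) and 0 were lower, while 24.4% of all 5886 genes tested were higher and 22.3% lower. In Tconv 2 of 10 were higher, Slc2a3 on 3 UMIs in effector-rich cells and Aldoa at 0.61 (-0.37 to 1.45), and 0 were lower, against 28% and 17.7% of 6638 genes. Effector-rich cells also held more of the myeloid marker UMIs than effector-low cells, 378 in effector-rich and 87 in effector-low Treg cells and 338 and 103 among Tconv cells. Treg markers were higher too in effector-rich Tconv cells, with 52 UMIs (808 CPM) against 201 UMIs (155 CPM) in effector-low ones (2.38, 1.91 to 2.82), and likewise without cells of other types (2.56, 2.09 to 3.01); among Treg cells they were at 2961 CPM in effector-rich and 2629 CPM in effector-low cells (0.17, 0.035 to 0.31). Of the 396 UMIs of the 6 Treg markers in the whole Tconv library Foxp3 had 6, and only Izumo1r reached 100 UMIs after thinning. The sums of the classes are not split by marker here. The part of the myeloid and Treg markers in the ratios was not tested. Without cells with markers of other types, myeloid markers had 22 UMIs (124 CPM) in effector-rich and 50 (77.1 CPM) in effector-low Treg cells. Their log2 ratio was still 0.69 (-0.10 to 1.44), while Tconv cells had 1 and 92 UMIs (18.0 and 73.8 CPM). B cell markers there had 19 UMIs (107 CPM) and 11 UMIs (17.0 CPM) in Treg (2.66, 1.52 to 3.88). Plasmacytoid dendritic (-0.37) and CD8 or NK markers (-0.088) went the other way in Treg, with intervals that included 0. The part of these markers was not tested. In the cells kept, the glycolysis ratio was 0.41 (0.23 to 0.58) in Treg and 0.39 (0.10 to 0.66) in Tconv. In those cells 3 of 9 genes were higher in Treg, against 25.2% of all genes (21.3% lower), and 3 of 10 in Tconv, against 27.8% (15.9% lower), with 0 of the set lower in either. Median depth was 2018 UMIs in effector-rich and 1711.5 in effector-low Treg cells, and 1606 and 1587 in Tconv cells. The summed level of the 10 genes also went with depth: over 4 equal classes of cells by UMIs, from shallow to deep, it was 1460, 1520, 1513 and 1763 CPM in Treg and 1461, 1563, 1635 and 1790 CPM in Tconv. The ratios from thinned UMIs, given above, count the same number of UMIs from each cell. Thinning on average keeps the share of the set in a cell, so it cannot remove a trend of that share with depth. Whether depth had a part in the ratios was not tested.

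Cells rich in Myc, the transcription factor known as an activator of glycolytic genes in dividing T cells, had no higher summed level of the 10 genes that could be detected in Treg, while single genes rested on few UMIs. Myc-rich cells had at least 3 Myc UMIs after thinning to 1000 and numbered 17 in Treg and 18 in Tconv, and Myc-negative cells had 0 (694 and 1020). In Treg the 10 genes summed to 58 UMIs (1669 CPM) in Myc-rich and 2096 UMIs (1596 CPM) in Myc-negative cells (log2 ratio 0.064, interval -0.34 to 0.44). In Tconv they summed to 71 UMIs (2144 CPM) and 2804 UMIs (1653 CPM), at a log2 ratio of 0.38 (0.015 to 0.72). However, 2 of the 18 Myc-rich cells carried markers of other types, and without such cells the ratio was -0.059 (-0.55 to 0.39). Among single genes, Slc2a3 had 13 UMIs (374 CPM) in 4 of the Myc-rich Treg cells and 114 UMIs (86.8 CPM) in the Myc-negative ones (log2 ratio 2.11, interval 1.15 to 2.94). Hk1 had 9 UMIs in 4 cells (259 CPM) and 68 UMIs (51.8 CPM), at a log2 ratio of 2.32 (1.13 to 3.33). Of the 13 Slc2a3 UMIs 7 lay in 1 cell. The Hk1 ratio was 1.07 (-2.03 to 3.02) with thinned UMIs only and 0.78 (-2.31 to 2.71) without cells with at least 3 proliferation UMIs, and the Slc2a3 ratio was 3.44 when Myc-rich meant at least 5 UMIs. With thinned UMIs only the Slc2a3 ratio was 1.503 with a lower bound of -0.16, and without the proliferation cells 1.38 with a lower bound of -0.55. Pgk1 had 0 UMIs in Myc-rich Treg cells and 216 in Myc-negative ones, and Ldha 11 and 361 (0.20, -0.81 to 1.06). In Tconv Gapdh had 18 UMIs in Myc-rich and 498 in Myc-negative cells (0.89, 0.12 to 1.56), Pgam1 had 8 and 124 (1.73, 0.48 to 2.75) and Pkm had 19 and 558 (0.80, 0.060 to 1.46). Without cells of other types these ratios were 0.94 (0.060 to 1.70) for Gapdh, -0.88 (-6.20 to 1.62) for Pgam1 and 0.13 (-1.01 to 1.06) for Pkm. No Slc2a3 or Hk1 UMI was found in the 18 Myc-rich Tconv cells, with upper bounds of the log2 ratio of 2.43 and 0.71. The Hif1a and hypoxia list was higher in Myc-rich Treg cells, with 41 UMIs (1180 CPM) against 822 UMIs (626 CPM) in Myc-negative ones. Its log2 ratio was 0.91 (0.42 to 1.37) in Treg and 0.43 (-0.29 to 1.07) in Tconv. Other lists differed in the same Treg cells too. Immediate early genes were higher (0.88, 0.26 to 1.43). Genes that take pyruvate to mitochondria (-1.09, -2.22 to -0.15) and effector or memory genes (-0.60, -0.90 to -0.32) were lower. The causes were not tested. In each library 8 Myc-rich cells had at least 3 UMIs of proliferation genes.

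**Figure D4:**
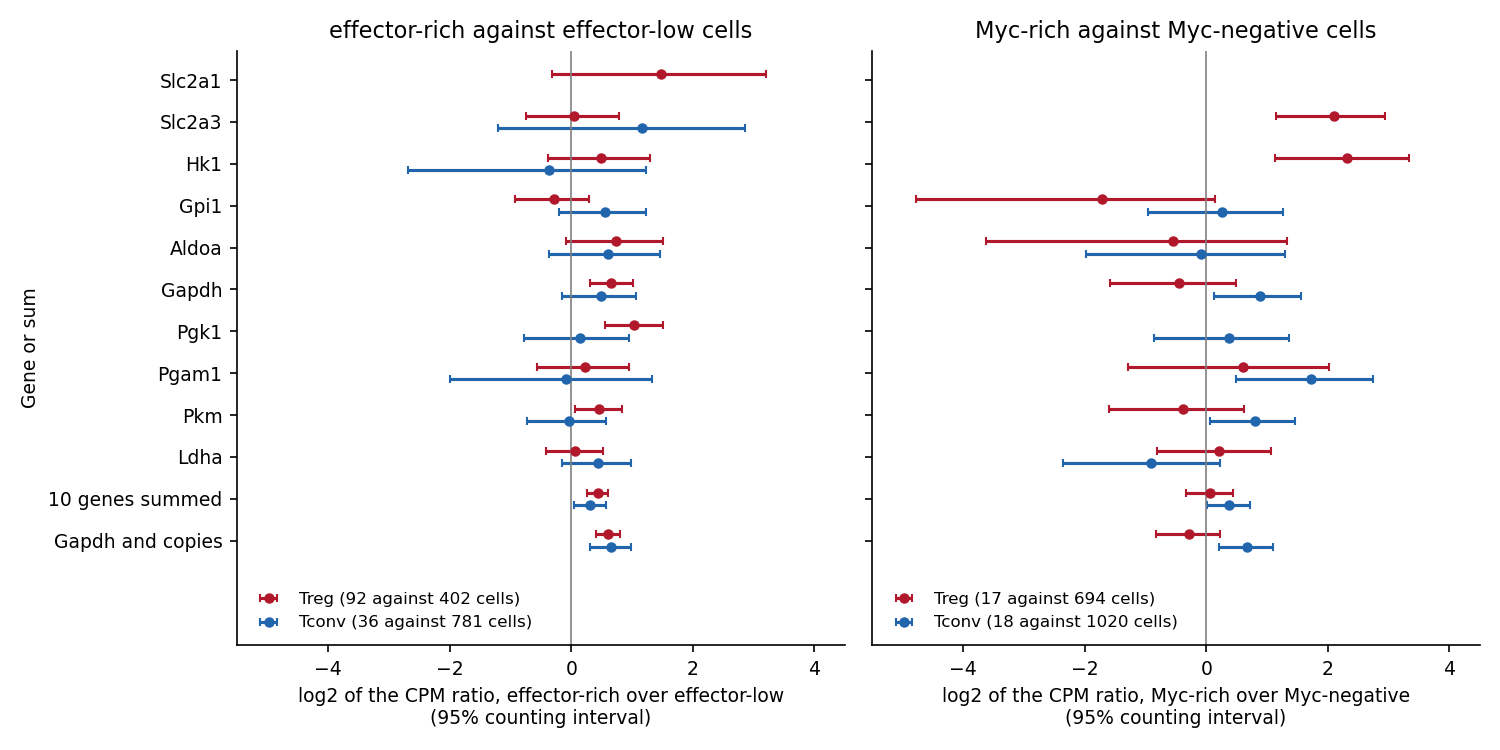
Log2 ratio of CPM with 95% counting intervals between effector-rich and effector-low cells (left panel) and between Myc-rich and Myc-negative cells (right panel), for each gene, the sum of 10 and Gapdh with its copies, with Treg drawn above Tconv; a gene with 0 UMIs in the rich class has no point. The sum lies above 0 for effector-rich cells (0.43 in Treg, 0.31 in Tconv), and the single genes of Myc-rich cells have wide intervals. Gapdh and its copies are summed as separate UMIs.

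Promoters of the set were read for the letters that Myc and Hif1a are known to bind, because these 2 factors are the known activators of the pathway. RefSeq promoters (250 bases before to 50 after a start, GRCm38.p6) were found for 9 of the 10 genes, 14 promoters in all; Slc2a3 had no entry. The Myc E-box CACGTG, which reads the same on both strands, was in 1 of the 14 promoters, at Ldha, and in 7.15% of all 32851 promoters. The Hif1a core ACGTG, searched on both strands and contained in CACGTG, was in 9 of the 14, from 8 genes, and in 19.6% of all promoters. Of the 9, 2 were overlapping Aldoa promoters that hold the same match. The share over all promoters is per promoter and is no background for the count of genes. The Ldha promoter, which holds both motifs, and the Pgk1 promoter, which holds only ACGTG, are printed with these letters in capitals, from chr7:46845554-46845853 and chrX:106186850-106187149, both on the plus strand. A match is a description of the letters and not a binding site.
Ldha: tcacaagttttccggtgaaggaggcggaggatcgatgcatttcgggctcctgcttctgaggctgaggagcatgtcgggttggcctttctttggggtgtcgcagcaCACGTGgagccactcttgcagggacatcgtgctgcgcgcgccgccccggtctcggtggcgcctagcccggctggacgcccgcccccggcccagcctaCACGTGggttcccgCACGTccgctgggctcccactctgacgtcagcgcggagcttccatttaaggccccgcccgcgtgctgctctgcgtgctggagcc
Pgk1: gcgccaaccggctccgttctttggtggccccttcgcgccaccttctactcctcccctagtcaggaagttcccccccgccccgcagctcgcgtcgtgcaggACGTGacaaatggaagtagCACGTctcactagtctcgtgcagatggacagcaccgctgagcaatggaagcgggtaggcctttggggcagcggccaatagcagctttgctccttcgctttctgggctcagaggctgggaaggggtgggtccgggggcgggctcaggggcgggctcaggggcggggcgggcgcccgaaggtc

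Each member was set against the others from cell to cell, and the number of members that went with the rest changed with the random thinning. A thinned Treg cell held a mean of 1.55 UMIs of the set (median 1, highest 11), and a Tconv cell likewise 1.55 (median 1, highest 10). Cells with none made up 27.5% of Treg (24.3 to 30.9) and 24.8% of Tconv (22.3 to 27.5). Each gene was then compared between cells with many and with few UMIs of the other 9, in most cases at least 2 against at most 1, since ties left no even split. In Treg the median log2 ratio was -0.027, with 5 of 10 genes above 0 and values between -1.55 (Slc2a1) and 0.36 (Pgk1), and in Tconv it was 0.29, with 7 of 10 above 0 and values between -0.81 (Slc2a1) and 0.60 (Pgam1). The median over other genes with at least 100 thinned UMIs was -0.00033 in Treg and 0.010 in Tconv. For these background genes cells were classed by the sum of all 10, and the 10 genes themselves had no minimum of UMIs. The shares below are therefore not for genes chosen alike. None of the 10 passed 1.5-fold in Treg, where 3.53% of 1163 background genes did. In Tconv 1 of the 10 did (Pgam1, interval -0.12 to 1.32), where 1.97% of 1577 did. Pgam1 had 35 UMIs in each class of Tconv cells, together under the minimum of the background genes. With another seed of the thinning 1 gene passed in Treg and 3 in Tconv, and without cells of other types 0 passed in either library. With the seed used, the interval included 0 for every gene in both libraries.

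**Figure D5:**
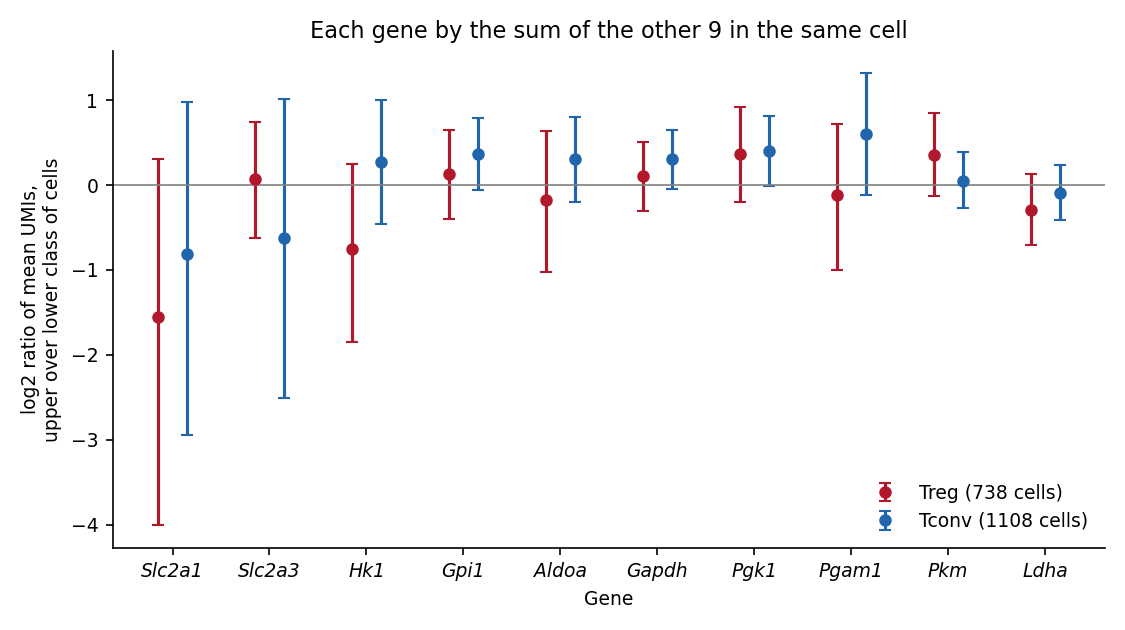
Log2 ratio of each gene's mean UMIs between thinned cells in the upper and the lower class by the sum of the other 9 genes, with 95% counting intervals, Treg left and Tconv right. The points lie between -1.55 and 0.60, and every interval crosses 0.

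Outside the set, genes were ranked by the lower bound of the ratio between cells with at least 2 and at most 1 UMIs of the set. The first were Zmynd11, S100a6, Irf1, Rpn2, Tgtp1 and Gm12070 in Treg and Jchain, Gm12070, Mien1, Slc9a3r1, Ing1 and Ttc3 in Tconv. They were picked by that bound from 1163 genes in Treg and 1577 in Tconv, so intervals above 0 are no check on them. The ranking used the same seed of the thinning. Without cells of other types Rpn2 and Tgtp1 left the Treg list and Jchain the Tconv list. Gm12070, the copy nearest to Gapdh, was the only gene in both lists, at 0.86 (0.52 to 1.20) in Treg and 1.13 (0.83 to 1.43) in Tconv. The sum that classed the cells holds Gapdh itself, so Gm12070 was not measured apart from its near-identical partner. Gapdh, classed by the other 9 genes, was at 0.10 (-0.30 to 0.51) in Treg and 0.30 (-0.042 to 0.64) in Tconv. S100a6, a calcium-binding protein gene of the effector list, was at 0.95 (0.62 to 1.29) in Treg, and Irf1, an interferon response factor, at 1.16 (0.61 to 1.72). Jchain, the antibody joining chain of plasma cells, had 97.6% of its thinned UMIs in 1 Tconv cell. Between cells, the Fano factor in Treg was 3.10 for Slc2a3 and 2.23 for Pgam1, while Gapdh (1.08 in Treg, 1.06 in Tconv) and Gpi1 (1.06 and 1.15) were close to 1. Slc2a1, at 2.23 in Treg, rested on 11 cells with 1 UMI and 1 cell with 5. Aldoa was at 1.20 in Treg and 1.76 in Tconv. Over all genes with a mean of at least 0.03 UMIs per thinned cell the median Fano factor was 1.68 in Treg and 1.33 in Tconv, and the upper 10% began at 2.58 and 1.91, so of the 9 and 8 members that reached this mean only Slc2a3 in Treg lay in the upper 10%.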

How the data were processed

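The values are UMI counts per gene and cell as deposited by the authors, raw whole numbers with no normalization. TopHat2, SAMtools and mm10 are named, per the submitters' processing notes; for annotation, UMI counter, strand setting and cell filter nothing is stated in the sources used here. UMIs were summed per library or class of cells and scaled to CPM with Python 3.11.15, numpy 2.4.6, pandas 2.3.3 and scipy 1.17.1. Sums have exact Poisson, shares exact Clopper-Pearson and ratios exact conditional 95% intervals, which cover counting error only. Depth was 1468203 UMIs in Treg and 2002752 in Tconv. A sum of 0 allows up to 3 counts, 2.04 CPM in Treg and 1.498 in Tconv.

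Calls were at least 1.5-fold among genes with at least 20 UMIs in both sums together. A class at 0 was set to 3 counts for calls, or to no difference where that bound fell on the other side of 0. This last step was added after seeing the data; without it Slc2a1, with 0 UMIs in effector-rich Tconv cells, would have counted as higher there, making 3 of 10 genes. Classes used cells thinned to 1000 UMIs, which left out 78 Treg and 192 Tconv cells. No doublet caller was run; cells above 2 times the median UMIs were left out in an alternative. TMM factors came from edgeR 4.0.16. Copies were found with BLAST+ 2.17.0 (megablast) among GENCODE M21 transcripts, sequences from GENCODE and RefSeq on GRCm38, the assembly also called mm10.

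Members, lists and tests were chosen with earlier results of these data known. The rule named the 10 members, the 4 most counted genes of each metabolic list described, and the 6 genes per library that went most with the set (S100a6 and Jchain are also in other lists). Other list genes past or nearest to the limit, isoform partners, the copies, Eno1b, marker genes and the cells split by Foxp3, Ikzf2, Il2ra or Myc were chosen after seeing the data. The ratio script was tested on simulated data.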

Additional observations from a re-analysis of the deposited data

How the results depend on the processing

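No paired analysis was possible because each group was 1 library, and no replicate could be left out. The summed log2 ratio of Treg over Tconv, -0.040, became -0.17 when totals excluded ribosomal protein genes, -0.20 with TMM factors and 0.11 with the near-identical copies counted in. Genes higher in Treg numbered 2 instead of 1 with equal weight per cell or with thinned cells, Slc2a1 joining Slc2a3, and genes lower numbered 0 instead of 1 without cells with markers of other types or at 2-fold. The Myc-rich sum was 0.48 in Treg with at least 5 Myc UMIs, and in Tconv -0.059 without cells of other types and -0.10 without cells with at least 3 proliferation UMIs. For effector-rich Tconv cells, genes higher numbered 1 instead of 2 with at least 5 expected UMIs in the smaller class or without ribosomal protein genes, and 0 at a limit of 6 UMIs. Genes lower there numbered 1 instead of 0 at a limit of 10, without ribosomal protein genes or without cells with a Myc UMI, and 2 once cells above 2 times the median depth were left out. In Treg genes higher numbered 1 instead of 3 without ribosomal protein genes. Genes that went with the other 9 numbered 1 instead of 0 in Treg with narrower classes of cells or another seed, and in Tconv 3 instead of 1 with another seed and 0 without cells of other types. The causes were not tested. The effector-rich sum lay between 0.28 and 0.47 in Treg and between 0.048 and 0.42 in Tconv over 9 alternatives each, lowest in Tconv with thinned UMIs only. A value counted as moved when it left its own counting interval (for a median over genes, the width typical of 1 gene) or, for a number of genes, changed by over 1.5 times: 22 summary values moved and 98 did not, and among single genes 4 moved and 111 did not. Depth limits Slc2a1, Hk2 and all single genes in the Myc-rich classes, which held under 20 cells.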
